A study of Mus musculus with 14 samples.

Results

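The Reg family lectins are 6 genes on these mouse arrays, Reg1, Reg2, Reg3a, Reg3b, Reg3g and Reg4. They were taken as every probe that is not a control and whose gene name in the scanner files is one of these symbols, which gave 6 probes, 1 for each gene, of 55681 probes that carry 36161 gene names. Their RNA was measured in 14 samples of 5 groups. The small intestine group holds 3 whole-tissue samples from different adult C57BL/6J mice. The adenoma group holds 3 whole macroscopic adenomas of the strain APCmin/+, which carries 1 truncated copy of Apc and develops intestinal adenomas, and the adjacent group holds 2 pieces of tissue next to adenomas of the same strain. The sample list of the study places all adenoma and adjacent pieces under 1 mouse, while its methods name more than 1 APCmin/+ mouse for the whole study. By that list the spread within these groups is that between pieces of 1 animal. The p-values that use these groups would then not cover differences between animals of this strain. The colon group holds 3 whole-tissue samples labelled C57BL/6J, 1 of which the sample list places under an APCmin/+ mouse. The CT26 group holds 3 samples of a mouse colorectal carcinoma cell line from ATCC, which the labels do not describe as separate cultures, so that p-values there measure a spread that may be technical. The labels name no treatment. The study's methods describe an analgesic, buprenorphine, for APCmin/+ mice that showed suffering, and do not state whether the donors of these pieces received it.

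Reg proteins are small secreted C-type lectins, and most Reg genes lie side by side in 1 cluster. Reg3b and Reg3g are made by enterocytes and Paneth cells of the small intestine, where the proteins bind bacterial cell walls and keep microbes away from the epithelium, and their transcription is induced by microbes through MyD88 and by interleukin-22 through STAT3. Reg1 and Reg2 are best known from the pancreas, Reg1 is also expressed in the regenerating and the proximal gut, and Reg4 marks secretory cells of the crypt and enteroendocrine cells. The exostosin-like protein Extl3 has been proposed as a receptor for Reg proteins.

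Each Reg gene was read by a 60-base probe, and the first 30 bases are given here because the family members resemble each other and the sequence decides which transcript a probe measures. They run 5′ to 3′ and carry no capitals, since no single base matters more than the others.
Reg1: ggaccatctatcaaaagcaaattagatcct
Reg2: acagtactcctttgtctgcaagttcagagc
Reg3a: cccatgacaagggatgaaatacaagaattc
Reg3b: gtgaagactcacctagaaaaagcattttct
Reg3g: gagtacagaattgacatcatgggttgatat
Reg4: gcattgcgctgagatgaaccccaaggataa
In the coordinates of the files (NCBI37/mm9) the probes lie at chr6:78378527-78378586 for Reg1, chr6:78357959-78358018 for Reg2, chr6:78333635-78333694 for Reg3a, chr6:78323323-78323382 for Reg3b, chr6:78416420-78416479 for Reg3g and chr3:98037005-98040251 for Reg4. The Reg4 interval is longer than the probe, which therefore spans a splice junction. No pair of the 6 full-length probes shared a run of over 7 identical bases, and identity in a global alignment lay between 47.8% and 56.5%, so the probes are distinct in sequence. Cross-hybridization itself was not tested.

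In RefSeq's annotation of GRCm38.p6, Reg3b, Reg3d, Reg3a, Reg2, Reg1 and Reg3g follow each other within 98 kb of chromosome 6 (78370885 to 78468874), whereas Reg4 lies on chromosome 3. All 6 members were found among RefSeq's promoters of this build. The 250 bases before the start of Reg3b and of Reg3g are shown because these 2 genes had the most similar signals across the arrays, and those of Reg1 because it differed most between adenomas and small intestine. They come from chr6:78370635-78370884 (plus strand), chr6:78468875-78469124 (minus strand) and chr6:78425733-78425982 (plus strand), and each is written along its gene with matches to TTCNNNGAA, the core pattern of STAT binding, and to TATAAA, the TATA box pattern, in capitals.
Reg3b: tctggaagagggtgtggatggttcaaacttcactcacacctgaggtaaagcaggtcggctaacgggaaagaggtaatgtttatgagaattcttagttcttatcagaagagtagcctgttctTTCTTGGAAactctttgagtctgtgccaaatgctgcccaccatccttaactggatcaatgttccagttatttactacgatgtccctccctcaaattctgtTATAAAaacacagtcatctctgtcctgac
Reg3g: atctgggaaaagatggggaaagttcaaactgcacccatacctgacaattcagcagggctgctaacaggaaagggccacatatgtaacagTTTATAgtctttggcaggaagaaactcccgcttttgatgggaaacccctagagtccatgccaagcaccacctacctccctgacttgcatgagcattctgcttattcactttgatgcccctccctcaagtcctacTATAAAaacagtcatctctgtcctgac
Reg1: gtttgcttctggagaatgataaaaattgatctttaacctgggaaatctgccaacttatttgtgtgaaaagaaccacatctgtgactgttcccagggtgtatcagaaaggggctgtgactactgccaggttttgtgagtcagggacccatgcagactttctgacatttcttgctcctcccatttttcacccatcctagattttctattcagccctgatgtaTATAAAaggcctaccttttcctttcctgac
The promoters of Reg3b and Reg3g were identical at 70% of aligned positions and shared a run of 20 bases, while the other 14 pairs of members were identical at 51.4% to 60.9%, the highest being Reg1 with Reg2. Searched on both strands, TATAAA was present in 4 of 6 members (Reg1, Reg2, Reg3b and Reg3g) against 12.4% of 32851 promoters of the same length, and in each of the 4 a match began between 27 and 30 bases before the start. The Reg3g sequence holds a second match on the other strand. TTCNNNGAA was present only in Reg3b among the 6 members, against 7.02% of all promoters, and its match, which begins at position -129 from the start, does not overlap the TATAAA match. These matches describe the letters of the window and no binding was measured.

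Signals are given as the log2 of the background-subtracted intensity minus the 75th percentile of its array, called the scaled log2 signal here, so that 0 is the level of the probe at that percentile and 1 unit is a 2-fold difference. Levels are compared between arrays for 1 gene, never between genes, because probes differ in brightness. The share of probes detected well above background ran from 46.8% (colon replicate 3) to 58.2%, and no Reg probe was saturated. Colon replicate 3 stood apart from its group. Its lowest correlation was 0.934 with the colon arrays and 0.951 with the small intestine arrays. Only probes that passed the background limit on all 14 arrays, CT26 included, entered these correlations. Colon replicate 3 also carried the ileal genes Fabp6 (11.12, against 1.84 and 1.42 on the other colon arrays) and Slc10a2 (6.91, against 2.58 and 2.86). The median of 10 enterocyte markers of the small intestine was 6.77 on this array, against -1.21 and -0.54 on the other 2, and the median of 9 colonocyte markers was 2.21 against 3.67 and 4.35. The comparisons of the Reg genes with colon are therefore given with and without it. On the CT26 arrays 2 to 3 of 8 epithelial markers were well above background, and Epcam, Cdh1, Krt19, Vil1 and Elf3 were not on any of them. In whole tissue, fewer cells of a type and less RNA per cell cannot be told apart, which applies to every tissue difference below.

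Reg1, the family member first found in regenerating pancreatic islets, was brightest in the adenomas. In small intestine its scaled log2 signals were 0.96, 2.82 and 3.71 on replicates 1 to 3. The adjacent arrays gave 1.55 and 8.03, the adenomas 8.14, 8.23 and 6.76, and the colon arrays -4.75, -1.93 and -0.09, of which the first was not well above background. Adenomas lay above every small intestine and colon array, and 1 of the 2 adjacent arrays lay within the range of the adenomas while the other lay within that of small intestine. The order of the group means was adenoma, adjacent, small intestine, colon and CT26, and the arrays of adenoma and adjacent overlapped, as did those of adjacent and small intestine.

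Reg2, the close neighbour of Reg1 in the cluster, stayed near the detection limit. It was well above background in all adenomas (-2.13, -3.12 and -4.20) and both adjacent pieces (-4.08 and -3.63), but on 1 of 3 small intestine arrays (-4.77 on replicate 1, with -6.34 and -4.97 below that limit) and on 1 of 3 colon arrays (-5.07 on replicate 2, with -5.00 and -4.43 below it). Adenomas and adjacent tissue overlapped, as did colon and small intestine, and the first 2 lay above the other 2. That separation rests on signals below the limit. The lowest signal well above background was -3.61 on colon replicate 3 and -4.12 on small intestine replicate 2, above the -4.20 of adenoma replicate 3.

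Reg3a, a further secreted lectin of the family, was even in normal small intestine at 5.96, 6.32 and 5.63 and in adjacent tissue at 5.82 and 5.46. In adenomas it was lower and more spread, at 1.37, 2.70 and 4.02, with no overlap. The colon arrays gave -4.34 and -3.00 on replicates 1 and 2 and 7.53 on replicate 3, which exceeded every other array of the series. Without that array the adenomas lay above colon.

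Reg3b and Reg3g, the bactericidal lectins, ran together. For Reg3b the small intestine gave 8.61, 9.34 and 7.66, adjacent tissue 9.40 and 8.77, and adenomas 6.21, 6.76 and 7.60. For Reg3g the same arrays gave 8.52, 8.81 and 6.92, then 8.73 and 7.73, and then 5.78, 6.03 and 6.77. In both genes every adenoma lay below every small intestine and adjacent array on this scale, though by a small margin against small intestine replicate 3. Colon spanned the whole tissue range, with Reg3b at 2.34, 5.71 and 10.46 and Reg3g at -0.11, 4.08 and 10.77 on replicates 1, 2 and 3. Again colon replicate 3 was the highest of the 14 arrays in both genes.

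Reg4, the lectin of secretory crypt cells, was highest in adenomas at 6.16, 6.25 and 6.66, against 4.53, 4.20 and 4.99 in small intestine and 3.80 and 4.06 in adjacent tissue. Its colon signals of 5.86, 4.13 and 2.38 ran the other way to those of the Reg3 genes, with replicate 3 the lowest. Small intestine, colon and adjacent tissue were neighbours in the order of means, and small intestine overlapped colon and colon overlapped adjacent tissue. On the CT26 arrays none of the 6 members was well above background, with signals from -7.50 to -5.44.

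**Figure D1:**
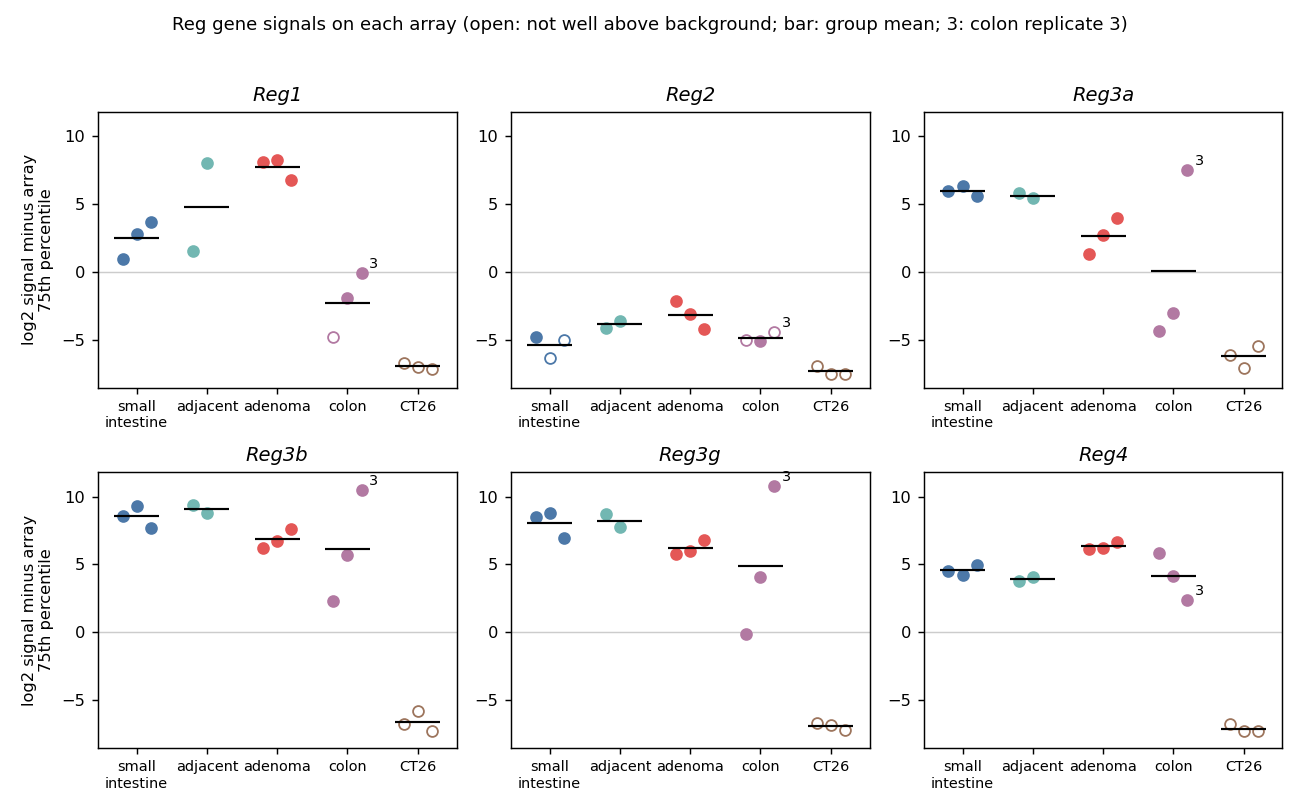
Scaled log2 signal (vertical axis, log2 units over the 75th percentile of the array) of the 6 Reg genes on every array of the 5 groups. Filled points were well above background, open points were not, bars are group means, and the colon point marked 3 is colon replicate 3, which is the highest array for Reg3a (7.53), Reg3b (10.46) and Reg3g (10.77) and the lowest tissue array for Reg4 (2.38).

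The comparison of adenomas with normal small intestine asked how the family differs in tumor tissue. Reg1 was overexpressed 37.1-fold and Reg4 3.44-fold in adenomas, whereas Reg3a was underexpressed 9.67-fold. Group means were 7.71 ± 0.83 against 2.50 ± 1.40 for Reg1, 6.36 ± 0.27 against 4.58 ± 0.40 for Reg4 and 2.70 ± 1.33 against 5.97 ± 0.35 for Reg3a (SD, n = 3 in each group). A gene was called where limma's adjusted p, over 29532 probes here, was at most 0.01 and its log2 fold change reached 1.2 either way. The log2 fold changes were 5.21 (SE 0.723, adjusted p = 0.00143) for Reg1, 1.78 (SE 0.252, adjusted p = 0.00154) for Reg4 and -3.27 (SE 0.613, adjusted p = 0.00476) for Reg3a. Thus 2 of 6 members were called higher, against 10.9% of all probes tested, and 1 of 6 lower, against 10.9% as well. The other members did not pass in limma. Reg2 was at least 2.4-fold brighter in adenomas than the detection limit in small intestine (log2 fold change 2.21, adjusted p = 0.0199, but a log2 fold change of 0.67 with normexp background correction, 0.92 in the authors' table and 1.26 with a floor on low signals), Reg3b had a log2 fold change of -1.68 (adjusted p = 0.0268) and Reg3g of -1.89 (adjusted p = 0.02).

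For none of the 6 genes did the adenoma and small intestine arrays overlap in the scaled log2 signal. The share of all probes without such overlap is not given here. Differences were common in this comparison, where 17534 of 29532 probes had an unadjusted p under 0.05 in limma. At an adjusted p of 0.05 in place of 0.01 all 6 would have passed, a count with no share of all probes beside it. Reg2 is among these 6 and entered the test through the adenomas alone. In the authors' table Reg3b and Reg3g did overlap, with 17.35 and 16.44 on adenoma replicate 3 and 16.9 and 16.09 on small intestine replicate 3. Reg3b had an adjusted p of 0.0621 in limma there and of 0.0625 after quantile normalization. Within each of the 2 slides the log2 fold changes kept their direction, being 5.11 and 5.41 for Reg1, 1.65 and 2.05 for Reg4, and -3.10 and -3.62 for Reg3a. The Reg3a call was lost without any single small intestine array or without adenoma replicate 2 (adjusted p between 0.0106 and 0.0211 in limma), with slide as a block (adjusted p = 0.0113) and with every probe tested (adjusted p = 0.0105). With all 5 groups in 1 fit, where the spread of the colon arrays enters, none of the 3 calls held (adjusted p = 0.0149 for Reg1, 0.0429 for Reg4 and 0.262 for Reg3a in limma) and Reg2 passed instead (adjusted p = 0.00546). Without small intestine replicate 3 Reg3g passed (log2 fold change -2.47, adjusted p = 0.00239 in limma).

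Genes that mark other cells or gut positions also differed between adenomas and small intestine, not always in the direction of the Reg genes. Of 9 Paneth cell markers found on the arrays all were well above background in each small intestine, adjacent and adenoma sample, and their summed signal on the log2 scale was 11.66 to 12.25 in small intestine, 12.15 and 10.41 in adjacent tissue and 9.51 to 10.20 in adenomas. The median of 10 enterocyte markers was 7.41 to 9.20 in small intestine and 5.29 to 6.10 in adenomas. Where 10.9% of all probes were called in each direction, 6 of the 9 Paneth markers were called lower and 1 higher. Of the 10 enterocyte markers 6 were called lower and 0 higher. The part of these cells in the Reg3a, Reg3b and Reg3g results was not tested. Goblet markers summed to 11.58 to 11.73 in small intestine and 10.33 to 10.73 in adenomas and enteroendocrine markers to 7.94 to 8.03 and 5.58 to 5.76, so that both sums were lower in the adenomas, where Reg4 was higher, with 4 of 10 goblet markers called lower and 1, Spdef, higher, and 6 of 10 tested enteroendocrine markers lower and 0 higher. Of 14 pancreatic acinar markers, relevant because Reg1 is abundant in that gland, 7, 7 and 6 were well above background on the small intestine arrays and 14, 11 and 8 in the adenomas, while their summed signal was at most 6.22 and 5.27. Of the 8 that were tested 3 were called higher and 1 lower. Of those not tested, Cpa1 was -2.41, -3.14 and -6.14 and Pnlip -3.85, -5.22 and -7.60 in the adenomas, against at most -5.70 and -6.37 in small intestine, none of them well above background. The median of the 14 was -4.12, -4.84 and -4.82 in small intestine and -2.42, -2.79 and -4.18 in adenomas. On adjacent replicates 1 and 2, with Reg1 at 1.55 and 8.03, their sum was 5.25 and 3.23 and their median -4.05 and -4.57. On each of these arrays 7 were well above background. The part of acinar cells in the Reg1 result was not tested.

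Genes that vary along the gut differed between pieces of tissue, whose position the labels do not give. Of these, 4 were ileal genes (Fabp6, Slc10a2, Slc51a and Slc51b, which take up and transport bile acids). Another 4 belong to the proximal small intestine (the transcription factors Gata4 and Onecut2, the iron reductase Cybrd1 and the folate transporter Slc46a1). Fabp6 was 9.95 on small intestine replicate 1 and 8.12 on adjacent replicate 1, where Reg1 was 0.96 and 1.55. It was 1.60 and -1.74 on small intestine replicates 2 and 3 and -0.83 on adjacent replicate 2, where Reg1 was 2.82, 3.71 and 8.03. In the adenomas Fabp6 was -1.76, -1.42 and -1.78. Onecut2 ran the other way, at -2.38, 1.41 and 2.93 in small intestine, 0.12 and 4.19 in adjacent tissue and 4.71, 5.14 and 4.73 in adenomas. The summed signal of the proximal genes was 3.57, 6.43 and 7.02 in small intestine, 4.07 and 6.35 in adjacent tissue and 6.17, 6.59 and 5.59 in adenomas. Between adenomas and small intestine 0 of the 4 proximal genes were called. Of the 4 ileal genes 2 were called lower and 0 higher, where 10.9% of all probes were called in each direction. These 8 genes were chosen after the gap between the adjacent arrays had been seen, and the part of gut position in the Reg1 result was not tested. Without small intestine replicate 1, the array with the highest Fabp6 of that group, the log2 fold change of Reg1 between adenomas and small intestine was 4.44 and passed (adjusted p = 0.000953 in limma). Replicates 2 and 3 of small intestine still lay below the adenomas in Onecut2 (1.41 and 2.93 against 4.71 to 5.14). This fit is therefore no test of gut position.

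**Figure D2:**
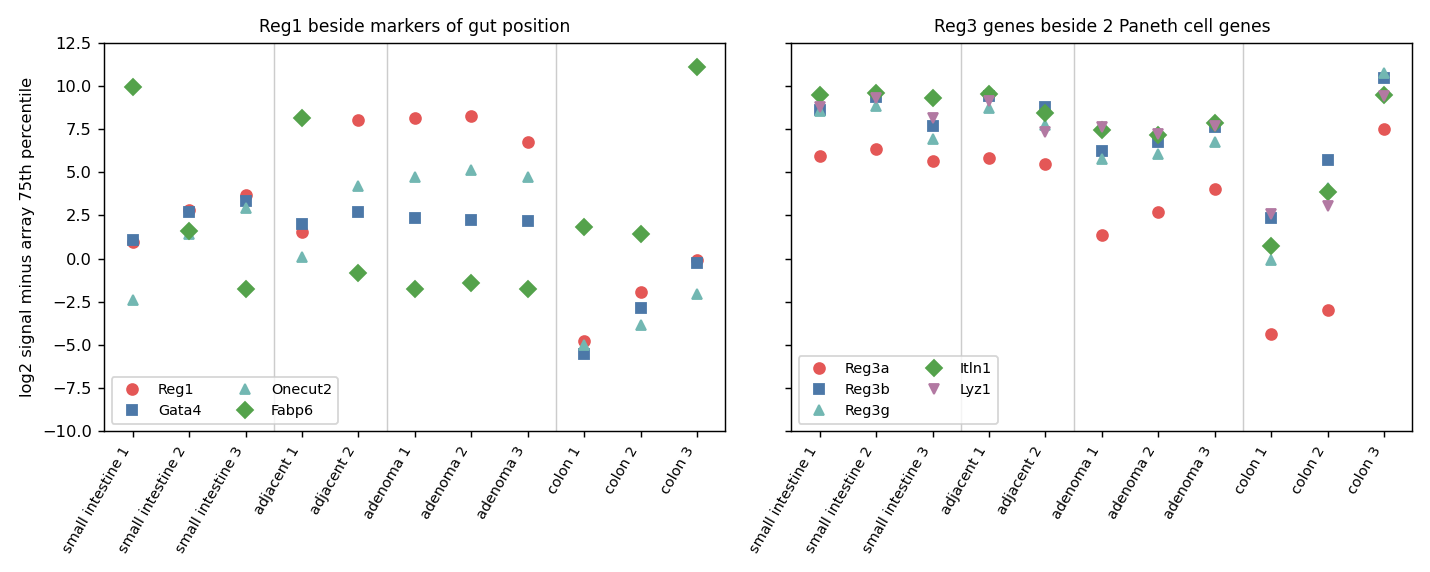
Scaled log2 signals (vertical axis, log2 units) on the 11 tissue arrays, for Reg1 with the proximal genes Gata4 and Onecut2 and the ileal gene Fabp6 (left) and for Reg3a, Reg3b and Reg3g with the Paneth cell genes Itln1 and Lyz1 (right). Each gene is to be read across arrays only: Reg1 was 1.55 on adjacent replicate 1, where Fabp6 was 8.12, and 8.03 on adjacent replicate 2, where Fabp6 was -0.83, and on colon replicate 3 the Reg3 genes and Itln1 (9.45) lay far above the other colon arrays.

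Against adjacent tissue of the same strain, Reg4 was the 1 member called in adenomas. It was overexpressed 5.37-fold, with means of 6.36 ± 0.27 (SD, n = 3) and 3.93 ± 0.19 (SD, n = 2), a log2 fold change of 2.43 (SE 0.211) and an adjusted p of 0.00411 in limma's test over 29726 probes. That is 1 of 6 members higher, where 2.27% of all probes were called higher, and 0 of 6 lower, where 1.7% were. The Reg3 genes were lower in adenomas with no overlap but did not pass in limma, with log2 fold changes of -2.94 for Reg3a (adjusted p = 0.0426), -2.23 for Reg3b (adjusted p = 0.0237) and -2.04 for Reg3g (adjusted p = 0.025). Of all 29726 probes tested, 11324 had an unadjusted p under 0.05 in limma. Reg2 gave 0.70 (adjusted p = 0.416) and Reg1 2.92 (95% interval -1.52 to 7.36, adjusted p = 0.282). The Reg4 call was lost in limma without adjacent replicate 1 or any 1 adenoma (adjusted p from 0.013 to 0.0359), with log2 fold changes between 2.27 and 2.52, and with slide as a block (adjusted p = 0.0118), the replicate number as a block (0.015) or the number in the title as a block (0.076). The Reg1 value turned on the 2 adjacent arrays, since it was 6.16 without replicate 2 (adjusted p = 0.00571 in limma) and -0.32 without replicate 1 (adjusted p = 0.75).

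The 2 adjacent arrays differed in Reg1 by 6.48 on the log2 scale, which is 89.2-fold, with replicate 2 the higher. Of 28145 probes well above background on both arrays only 3 differed by more, those of Plb1 (-10.30, replicate 2 minus replicate 1), Fabp6 (-8.94) and Fam151a (-7.39), and all 3 were lower on replicate 2. Every other Reg gene differed by at most 2-fold between these arrays. Reg1 was therefore the gene with the greatest excess on adjacent replicate 2 among the probes measured on both.

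Between adjacent tissue and small intestine no Reg gene was called in limma, where 0.00694% of 28824 probes were called higher and 0% lower, although 8749 of them had an unadjusted p under 0.05. Among the members 1, Reg2, was under that unadjusted limit (log2 fold change 1.51, 95% interval 0.26 to 2.75, adjusted p = 0.118). The log2 fold changes of the Reg3 genes were small, at -0.33 for Reg3a (95% interval -1.03 to 0.36), 0.55 for Reg3b (-0.71 to 1.81) and 0.15 for Reg3g (-1.40 to 1.69). Reg4 gave -0.64 (-1.36 to 0.08) with no overlap of the arrays, and Reg1 gave 2.29 (-2.32 to 6.90).

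**Figure D3:**
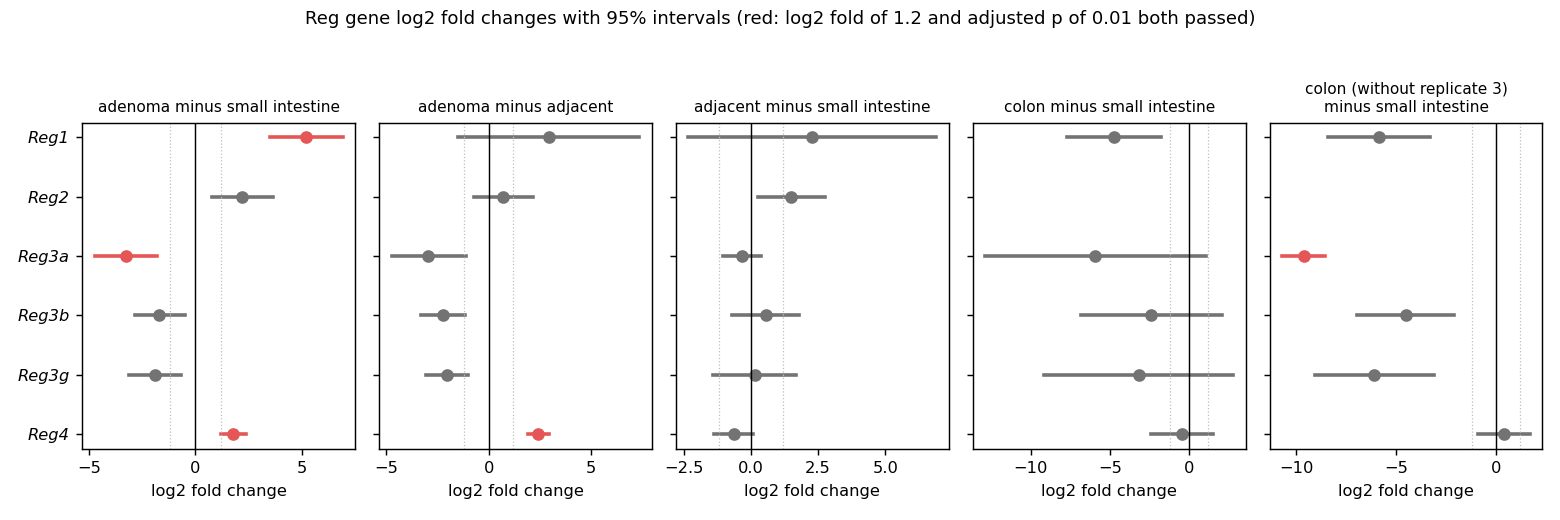
Log2 fold changes (horizontal axis) of the 6 Reg genes in 4 comparisons and in colon against small intestine without colon replicate 3, with 95% intervals from limma. Red marks members past both thresholds, dotted lines lie at a log2 fold change of 1.2 in either direction, the axes differ between panels, and Reg2 was not tested in the colon panels. Reg4 is red in both comparisons of adenomas, and Reg3a is red in colon only after replicate 3 is left out (-9.64).

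Colon was compared with small intestine as the 2 normal tissues. With all 3 colon arrays none of the 5 members tested was called in limma, in a fit where 0.00366% of 27287 probes were called higher, 0.00366% lower and 6413 had an unadjusted p under 0.05, and of the members Reg1 alone was under that limit. The log2 fold changes were -4.76 for Reg1 (adjusted p = 0.106), -5.91 for Reg3a, -2.37 for Reg3b, -3.17 for Reg3g and -0.45 for Reg4, with adjusted p-values from 0.269 to 0.764 for the last 4, and the SD of Reg3a over the colon arrays was 6.50. Without colon replicate 3 (2 colon arrays against 3), Reg3a was underexpressed 798-fold in colon, with a log2 fold change of -9.64 (SE 0.445, adjusted p = 0.000235 in limma). This was 1 of the 5 members tested, where 3.67% of 30526 probes were called lower, and 0 of 5 were higher, where 3.28% were. The log2 fold changes of the remaining members were then -5.84 for Reg1 (at least 57.1-fold, adjusted p = 0.0144), -4.51 for Reg3b (22.8-fold, adjusted p = 0.0259), -6.10 for Reg3g (68.4-fold, adjusted p = 0.0197) and 0.42 for Reg4 (adjusted p = 0.587), none of which passed in limma. Reg3b, Reg3g and Reg1 lay below every small intestine array on both remaining colon arrays. In that fit 12302 of the 30526 probes had an unadjusted p under 0.05 in limma.

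The Paneth markers went with the Reg3 genes across the colon arrays. Of the 9 markers 5, 6 and 8 were well above background on colon replicates 1, 2 and 3, and their summed log2 signal was 4.02, 6.87 and 12.06. The cryptdin Defa21 was not well above background on any of the 3 (-6.81, -7.36 and -5.74), whereas Itln1, an intelectin of Paneth and goblet cells, was 0.75 and 3.86 on replicates 1 and 2 and 9.45 on replicate 3, and Lyz1, the Paneth lysozyme, was 2.58, 3.05 and 9.44. The part of these cells in the spread of Reg3a, Reg3b and Reg3g in colon was not tested.

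CT26 cells were compared with colon, the tissue of origin of the line. Reg3b, Reg3g and Reg4 were underexpressed in CT26, by at least 2270-fold, 951-fold and 549-fold, where the bound is the colon mean over the detection limit of the CT26 arrays. Their adjusted p-values in limma were 0.000726, 0.00398 and 2.5e-05. These are 3 of the 4 members tested, where 14.9% of 29387 probes were called lower, and 0 of 4 were higher, where 21.5% were. No member was well above background in CT26, so these 4 entered the test through colon alone. That filter left little room for a higher call, with or without colon replicate 3. The counts are therefore no result about the family. Reg3a was at least 33-fold lower without passing (adjusted p = 0.0933 in limma), and Reg1 and Reg2, well above background on every array of neither group, were not tested. Without colon replicate 3 the bounds were at least 2.48-fold for Reg3a, 513-fold for Reg3b, 125-fold for Reg3g and 1000-fold for Reg4, and all 4 passed (adjusted p at most 0.00852 in limma), where 18.5% of 31808 probes were called lower and 20.5% higher. The Reg3g call was lost without any 1 CT26 array (adjusted p from 0.0151 to 0.0208 in limma), with slide as a block (0.0114) and in the authors' normalized table (log2 fold change -7.76, adjusted p = 0.0193). In CT26 all 8 epithelial markers were called lower as well. Their part in these differences was not tested.

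Adenomas against colon gave 1 call. Reg1 was at least 999-fold higher in adenomas (log2 fold change 9.97, SE 1.16, adjusted p = 0.0061 in limma), which is 1 of 6 members higher, where 1.98% of 29165 probes were called higher, and 0 of 6 lower, where 1.44% were. Reg4 was higher in all adenomas than in any colon array without passing (log2 fold change 2.24, adjusted p = 0.14 in limma), and Reg2 likewise (1.68, adjusted p = 0.0961). Reg2, however, was well above background on only 1 of the 3 colon arrays. Without colon replicate 3, Reg1 was at least 2120-fold higher (adjusted p = 0.00109) and Reg3a 82.6-fold higher (log2 fold change 6.37, adjusted p = 0.00415), both past limma's thresholds, where 4.76% of 31161 probes were called higher and 6.44% lower. The Reg1 call was lost in limma without any 1 adenoma or without colon replicate 1 or 2 (adjusted p from 0.0102 to 0.0456), with slide as a block (0.0255), with the replicate block (0.0242) and with every probe tested (0.0105). The comparisons above share the adenoma, small intestine or colon arrays, so that their values are not independent of each other.

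The genes around the Reg family were read from 6 lists in the comparison of adenomas with small intestine. A gene well above background in only 1 of the 2 groups entered the test through that group, so counts over the tested genes of a list do not speak for the whole list. Of 12 cytokines that induce Reg genes or act beside interleukin-22, 6 were tested, of which Il6, Il1b and Lif entered through the adenomas alone. Of the 6, 4 were called higher (Il6, Il11, Il1b and Il33) and 0 lower, where 10.9% of all probes were called in each direction. Il6 was at least 13.4-fold higher (log2 fold change 5.91), Il11 56.5-fold (5.82) and Il1b at least 22.7-fold (4.51), with adjusted p-values of 0.000203, 0.000242 and 4.8e-05 in limma. Il22 itself was well above background on 1 small intestine array (-4.81), on no adjacent or adenoma array, on 1 colon array and on all 3 CT26 arrays, and Il17a on none of the 14. Among 12 receptor genes 4 rose and 4 fell, with a median of 0.15. The rising ones included the interleukin-1 receptor antagonist Il1rn (3.75, at least 6.64-fold) and the oncostatin M receptor Osmr (2.52), and the falling ones Il17rc (-2.19) and Il22ra1, the epithelial subunit of the interleukin-22 receptor (-1.69, adjusted p = 0.000915 in limma, from -2.66 in small intestine to -4.35).

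Of 15 genes of signal transduction 3 rose and 2 fell, with a median of -0.48, where 10.9% of all probes were called in each direction. The microbial sensors Tlr2 (3.77), Tlr4 (3.32) and Nod2 (2.42) rose, while the adaptor Ticam1 (-1.52) and the kinase Jak2 (-1.43) fell. Stat3, the transcription factor downstream of interleukin-22, did not pass (log2 fold change -0.10, SE 0.18, adjusted p = 0.651 in limma), nor did Socs3, its feedback inhibitor (1.50, adjusted p = 0.0112). Other epithelial genes induced by microbes or interleukin-22 split, with 8 of 16 called higher and 2 lower. The acute phase protein Lrg1 was 92.7-fold higher (6.53), the serum amyloid gene Saa3 at least 58.5-fold (6.49), the neutrophil chemokine Cxcl5 at least 36.3-fold (6.29) and the siderophore-binding Lcn2 24.7-fold (4.62), whereas Ido1 (-4.79) and Saa2 (-4.06, a close relative of Saa1 whose transcripts a probe may share) fell.

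Antimicrobial genes of the epithelium other than the Reg family numbered 11 tested, of which 3 rose and 3 fell, with a median of -0.58. The 3 that fell were Ang4 (-4.83, 28.5-fold), Itln1 (-1.96) and Zg16 (-1.89), products of Paneth and goblet cells. The 3 that rose were Wfdc2 (4.91, 30-fold), Pla2g2a (4.05, 16.5-fold), a Paneth cell phospholipase, and Pglyrp1 (2.04). This list shares 4 genes with the Paneth markers (Lyz1, Ang4, Itln1 and Pla2g2a). Extl3, the proposed receptor, gave 0.79 (adjusted p = 0.0106 in limma), with 2.35 to 2.76 in small intestine, 3.28 to 3.57 in adenomas and 3.77 to 3.95 in CT26. Reg3d, the sixth Reg gene of the chromosome 6 cluster, fell (log2 fold change -1.66, adjusted p = 0.00135 in limma), from -0.98, -0.43 and -1.21 to -2.64, -2.49 and -2.47.

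Against adjacent tissue, where 2.27% of all probes were called higher and 1.7% lower, the same 4 cytokines were called higher and 0 lower of 6 tested. Il6 entered through the adenomas alone. Il11 was 38.1-fold, Il6 at least 13.2-fold and Il1b 6.12-fold higher. The genes induced by microbes or interleukin-22 had 5 of 14 higher and 0 lower, with Saa3 36.2-fold, Lrg1 30.6-fold and Lcn2 20.9-fold higher, and the antimicrobial genes 1 of 11 higher, Wfdc2 at 19.1-fold. Of the receptors 0 of 12 rose and 1 fell, the soluble receptor Il22ra2 (-3.27, 9.66-fold), and of the signal transduction genes 1 of 15 rose, Tlr4 (1.67, at least 3.19-fold). Il22ra1, Stat3 and Socs3 did not pass (-0.82, 0.26 and 0.83). Reg3d fell here too (-1.91, adjusted p = 0.0044 in limma), while Extl3 gave 0.43. In CT26 against colon 10 of 11 antimicrobial genes and 8 of 14 induced genes were called lower, where 14.9% of all probes were, beside the 3 Reg members called lower. Zg16 was at least 19900-fold and Dmbt1 at least 22400-fold lower in these cells, and Retnlb, which stands in both lists, at least 1160-fold. Without colon replicate 3 the counts were 10 of 11 and 9 of 15, where 18.5% of all probes were called lower.

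**Figure D4:**
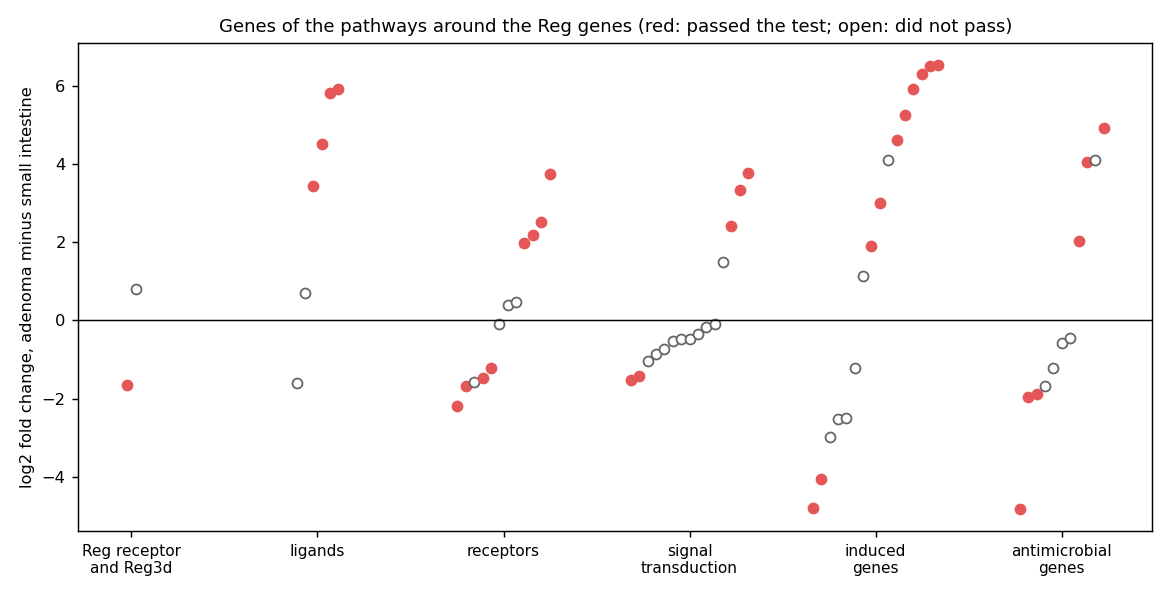
Log2 fold change of adenomas minus small intestine (vertical axis) for the tested genes of 6 lists around the Reg family, each point 1 gene, red past limma's thresholds and open otherwise. The cytokines have 4 red points above 0 and none below, the induced genes 8 above and 2 below, and the antimicrobial genes 3 on either side.

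Among 25161 genes measured on at least 3 arrays, those most like each member over the 14 arrays were taken by Pearson's r of the scaled log2 signal, given as a description. All 6 members were near background on the 3 CT26 arrays, and so were most of these genes, a split that raises every r. Colon replicate 3, the highest array for Reg3a, Reg3b and Reg3g, is among the 14, and r was not computed without it. Reg3b and Reg3g were the most alike pair of members (r = 0.993), followed by Reg3a and Reg3g (0.943), while Reg2 and Reg3a were the least alike (0.583). Nearest to Reg3b were Itln1 (0.989), Unc5cl (0.988) and Prodh (0.987), and nearest to Reg3g were Itln1 (0.991), a probe with no gene name (0.989) and Lyz1 (0.986). Reg3a was nearest to the brush border peptidase Enpep (0.989), 2010001E11Rik (0.986) and the amino acid transporter Slc6a19 (0.985), and Enpep shows the shape well, with 5.36, 4.72 and 4.54 in small intestine, -0.16, 1.09 and 1.80 in adenomas and -3.60, -2.57 and 5.87 in colon. Reg1 was nearest to Pilrb1 (0.975), the complement factor Cfi (0.969) and lactoferrin Ltf (0.967). Cfi was -0.33, -0.42 and 0.45 in small intestine, 1.41 and 3.12 in adjacent tissue and 5.96, 5.90 and 5.99 in adenomas, and Ltf, listed here with neutrophil markers, was -0.88 and 1.98 on the adjacent arrays and 2.81 to 3.41 in adenomas. Between adenomas and small intestine 10.9% of all probes were called in each direction. Of 8 neutrophil markers 5 were tested there, and Ltf (5.85) and Mmp9 (2.88) were called higher and 0 lower. The median of the 8 was -4.25, -3.60 and -3.38 in small intestine and -0.87, -2.51 and -2.70 in adenomas, while their summed signal was 4.98 to 5.76 and 5.70 to 5.91. The part of these cells in the Reg1, cytokine and induced gene results was not tested. Reg2 was nearest to Ripply3 (0.949), Arhgdig (0.947) and a probe for a noncoding region with no gene symbol (0.946). Reg4 was nearest to the adhesion molecule Alcam (0.992), the epithelial splicing factor Esrp2 (0.992) and Plek2 (0.991), of which Alcam was 0.50 to 0.56 in small intestine and 1.69 to 2.20 in adenomas.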

How the data were processed

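RNA of 14 samples was labelled with Cy3 and hybridized to 1 one-color Agilent SurePrint G3 Mouse array each. The authors scanned each array with Feature Extraction 10.7.3.1 and deposited its output, in which the processed signal is a background-subtracted intensity on a linear scale, not scaled across arrays. A second deposited file holds log2 values that the authors normalized between arrays by a method not given in the sources used here. Its 28 flag and detection columns were not used, nor were its columns of fold changes and p-values for pairs of groups, which hold the authors' own comparisons. Control and outlier spots (103 to 206 per array) were left out, values were log2 transformed and reduced by the 75th percentile of their array, and spots of a probe were averaged. A probe entered a test if 1 or both groups had it well above background on all arrays. An "at least" fold sets the brighter mean against the higher of the lowest signal well above background and the probe's own on each dim array. Groups came from the labels. Each pair was fitted on its own arrays with limma 3.58.1 in R 4.3.3 and adjusted by Benjamini-Hochberg over all probes tested. The test was checked on simulated data. The number of arrays limits the precision. Genes named are the 6 members, Extl3, Reg3d, Il22ra1, Stat3, Socs3, up to 3 called genes with the largest change per pathway list and the 3 genes most like each member. Further list genes, and the ileal and proximal lists, were chosen after their values were seen. Members and lists were chosen with earlier results of these data known. Sequences come from the scanner files and RefSeq, and promoters were aligned globally (match 1, mismatch and gap -1). Alternatives were the authors' table, normexp, quantile normalization, filters, floors, thresholds, a fit of all groups, blocks and leaving out each array.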

Additional observations from a re-analysis of the deposited data

How the results depend on the processing

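The number of Reg members called depended on the threshold, the samples in the fit and single arrays. The shares of all probes called under these alternatives are not given here, so these counts have no background beside them. Between adenomas and small intestine it was 3, and 2 to 3 with 1 array left out, 2 when every probe was tested or with slide as a block, 1 with all 5 groups in 1 fit (Reg2, in place of the 3) and 6 at an adjusted p of 0.05. Between adenomas and adjacent tissue it was 1, 0 to 2 with 1 array left out, 0 when every probe was tested, with all 5 groups in 1 fit or with slide as a block, and 4 at an adjusted p of 0.05. For colon against small intestine it was 0, 0 to 1 with 1 array left out, and 3 in a fit of all 5 groups without colon replicate 3, an alternative chosen after seeing the data. CT26 against colon gave 3, 2 to 4 with 1 array left out, 5 when every probe was tested and 0 where only probes above background in both groups were kept, since no member is above background in CT26. Adenomas against colon gave 1, 0 to 2 with 1 array left out, 0 when every probe was tested, with the filter on both groups or with slide as a block, and 3 in the fit of all 5 groups without colon replicate 3.

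In no comparison did the correlation of every pair of arrays with the same replicate number exceed 0.1. Between adjacent tissue and small intestine the pairs gave 0.302 and 0.0894, and between colon and small intestine 0.147, -0.00282 and 0.173. So few pairs cannot show whether arrays of the same number deviated together. With the replicate number as a block the count fell to 0 between adenomas and adjacent tissue, also with the numbers in the titles, and to 0 between adenomas and colon, and it moved no other count by over 1.5 times.

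Each log2 fold change that turned sign had not been called. Between adenomas and adjacent tissue Reg1 ran from -0.32 without adjacent replicate 1 to 6.16 without replicate 2. Between adjacent tissue and small intestine Reg1 ran from -0.95 without adjacent replicate 2 to 5.53 without replicate 1, Reg3a was 0.05 in the authors' table and 0.07 after quantile normalization, and Reg3g was -0.43 with the replicate block, -0.43 without small intestine replicate 3 and -0.35 without adjacent replicate 1, the highest with 1 array left out being 0.65. Reg4 in colon against small intestine was 0.42 without colon replicate 3, alone or in the fit of all groups, and -1.32 without colon replicate 1, and Reg3b and Reg3g in adenomas against colon were -1.22 and -1.23 without colon replicate 1 and 2.84 and 4.21 without replicate 3. The cause of these changes was not tested.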
